A study of Danio rerio with 12 samples.

Results

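The calcitonin peptides and adrenomedullins are small secreted hormones, some of which share receptors. Their genes were followed through the chambers of the adult zebrafish heart. The genes were taken by name from a list of 8: the ligands calca, adma and adm2a, the receptors calcrla and calcrlb, and the receptor partners ramp1, ramp2 and ramp3. Of these 8, 6 were found by name among the 22158 genes of the table, and all 6 passed the filter on low counts that left 19145 genes. The genes ramp1 and ramp3 were not found by name. The RefSeq gene table gives zgc:91818 as a synonym of ramp1, and the row of that name is described beside ramp2 but not counted among the 6. The gene ramp3 was not analysed here. The group was selected on the level of calca, whose differences between tissues were among the strongest measured. Its levels across tissues are therefore given as a description without a test, and only its comparison between genotypes was tested. That comparison shares libraries with the tissue differences that chose the gene, so it is not free of the choice.

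RNA was sequenced from 12 libraries of dissected heart tissue, 2 in each of 6 groups, with tissue of 20 pooled fish in each library. The groups were the SV (sinus venosus, the venous inflow vessel) and the ventricle of nr2f1a aco mutants, and, from WT fish, the SV, the BA (bulbus arteriosus, the outflow vessel), the atrium and the ventricle, all aged from 6 months to 1.5 years. The sample labels give the background as AB/TU, whereas the methods of the study give the mixed AB/TL background for its WT fish. The mutagenesis screen that gave the aco allele left nr2f1a with a deletion in its untranslated leader, and the adult mutants lack a normal atrium, so the tissue labelled mutant SV is the chamber-like structure at their venous pole. The allele is a germline change, not restricted to a cell type, and mutant atrium was not analysed here. The titles and genotype labels name the mutant libraries as mutant, whereas 2 other labels of the same libraries say WT. They were used as mutant, and nr2f1a itself does not check this, because the allele is still transcribed. The nr2f1a level was 13.1 and 24.6 CPM (counts scaled to library size, with TMM factors) in the mutant SV, against 17.9 and 9.67 CPM in the WT SV. It was 2.05 and 1.48 CPM in the mutant ventricle, against 1.35 and 1.70 CPM in the WT ventricle.

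In vertebrates calca encodes both calcitonin, a hormone of calcium balance, and calcitonin gene-related peptide, a neuropeptide that dilates vessels, by alternative splicing of its transcript. Counts per gene do not separate these forms. In fish calcitonin is made by the ultimobranchial gland, an endocrine gland that lies beside the oesophagus near the sinus venosus. Adrenomedullin is a vasodilator peptide that in mammals is needed by blood and lymphatic vessels, and adm2 encodes intermedin, a related peptide. In mammals calcitonin gene-related peptide, adrenomedullin and intermedin bind the calcitonin receptor-like receptor. This receptor is coupled to cyclic AMP and reaches the cell surface only with a RAMP protein. RAMP1 makes it a receptor for calcitonin gene-related peptide, whereas RAMP2 and RAMP3 make it a receptor for adrenomedullin. Zebrafish hold duplicates of several of these genes, among them adma and admb, and calcrla and calcrlb.

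Library totals ranged from 28325098 to 60532949 counts, and 1 read was worth between 0.0229 and 0.0294 CPM. Summed markers set the atrium and ventricle libraries apart from the SV and BA libraries. The summed level of 6 cardiomyocyte markers lay between 26970 and 112100 CPM in the atrium and ventricle libraries of both genotypes and between 404.6 and 2446 CPM in the SV and BA libraries. The 5 smooth muscle markers summed to between 1144 and 12220 CPM in the SV and BA and to between 98.3 and 551 CPM in the other libraries. The ventricular marker vmhc stood at 221 and 2099 CPM in the WT ventricle, so its replicates differed widely. It stood at 1382 and 765 CPM in the mutant ventricle and at 5.26 and 6.16 CPM in the WT atrium. The atrial marker myh6 stood at 1645 and 8450 CPM in the WT atrium, against 23.2 and 121 CPM in the WT ventricle. Markers of neighbouring organs were also present in the SV libraries. The 5 enterocyte markers that were found summed to 5.20 and 4.67 CPM in the mutant SV, against 1400 and 1467 CPM in the WT SV. The 8 hepatocyte markers summed to 4654 and 358 CPM in the mutant SV, against 525 and 689 CPM in the WT SV. The thyroid gene tg stood at 1.31 and 280 CPM in the mutant SV, against 2.01 and 0.396 CPM in the WT SV. In bulk tissue, fewer cells of a type and less RNA per cell cannot be told apart. No label says that libraries of a group came from separate crosses or days. The study states that its libraries were prepared in several batches and were of different types. The fitted model held a factor for unwanted variation, estimated from differences between replicates, which can take up part of such differences. The p-values therefore measure the spread between these pools that remained after this factor. Any difference in batch or library type that it did not take up is included.

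The gene calca was high only in the SV libraries, in both genotypes. It stood at 220 and 36.0 CPM in the mutant SV, against 2580 and 249 CPM in the WT SV. In the other libraries it was close to undetected, at 0.190 and 0.0780 CPM in the WT BA, 0.150 and 0.455 CPM in the WT atrium, 0.144 and 0.329 CPM in the mutant ventricle and 0.0737 and 0.264 CPM in the WT ventricle. These last values rest on 3 to 17 counts per library, and the 4 SV libraries held between 1495 and 112834 counts. In the first WT SV library calca took 0.313% of all counts and ranked 30th among the genes, and in the second it ranked 283rd. The fitted log2 difference of the WT SV was 13.37 over the BA, 12.11 over the atrium and 12.87 over the ventricle, values that chose the gene and that depend on the few counts in the lower tissue.

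**Figure D1:**
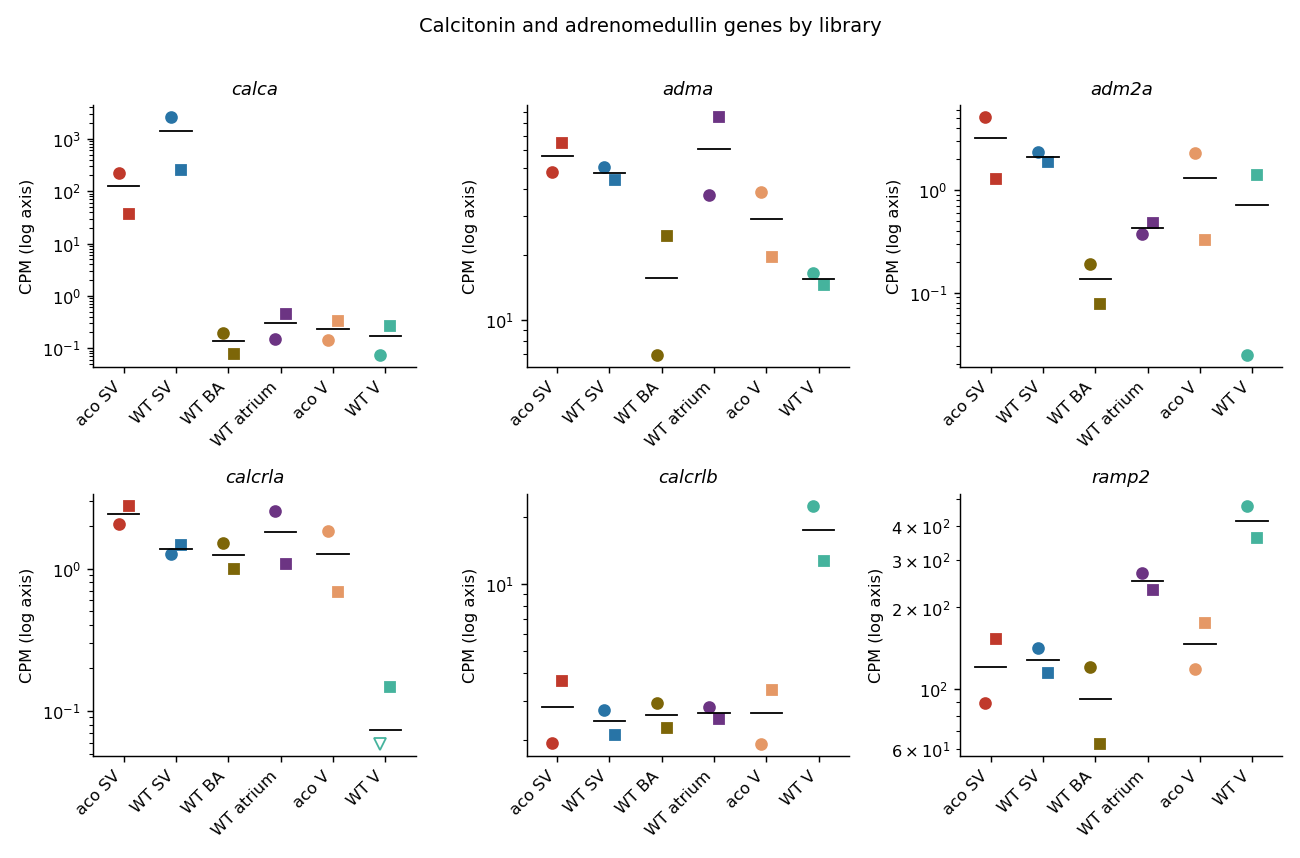
Level of each of the 6 genes in every library, in CPM on a log axis, with circles for replicate 1, squares for replicate 2 and a line at the mean of each group. An open triangle marks a library with 0 counts. The 4 SV libraries stand far above the other 8 for calca, and the WT ventricle libraries stand apart from the rest for calcrla, calcrlb and ramp2.

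The replicates of calca differed widely within each genotype. The higher WT SV library held 10.3 times the level of the lower one, and the higher mutant SV library 6.10 times that of the lower. Both mutant SV libraries lay below both WT SV libraries, but only narrowly, with 220 CPM in the highest mutant library and 249 CPM in the lowest WT library. The log2 fold change of calca in the mutant SV over the WT SV was -4.60 with an SE of 1.16, and its Benjamini-Hochberg adjusted p was 0.0851 by edgeR's quasi-likelihood test over all genes, so calca was not called. The mean was 128 ± 130 CPM in the mutant SV and 1415 ± 1648 CPM in the WT SV (SD, n = 2 each). The model held a RUVs factor, a term for unwanted variation estimated from differences between replicates of a group. With no such factor the log2 fold change of calca was -3.47. DESeq2 with the same factor called it, and edgeR called it without the second WT SV library (adjusted p = 0.00464). The estimate moved between -5.65 and -1.97 as each of the 12 libraries was left out. The WT SV libraries in this comparison also entered the tissue differences that chose calca, so its genotype values are not free of that choice.

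Summed markers of endocrine cells were, like calca, highest in the first WT SV library. The 13 neuroendocrine markers found of 14 listed summed to 12.2 and 28.4 CPM in the mutant SV, against 137 and 25.7 CPM in the WT SV. The list did not follow calca outside the SV, since it summed to 77.9 and 128 CPM in the WT atrium, where calca was at 0.150 and 0.455 CPM and where the vesicle gene syt1a alone held 65.6 and 121 CPM. In the first WT SV library scg3, a secretory granule protein, stood at 60.8 CPM, against 6.92 CPM in the second. The prohormone convertase gene pcsk2 had 2.68 and 0.326 CPM in the WT SV libraries, and the granule gene chga had 1.97 and 0.210 CPM. In the mutant SV pcsk2 was at 0.183 and 0.12 CPM, and chga was at 0 and 0.0481 CPM. Other genes of the list overlapped between genotypes, among them vgf, at 1.30 and 6.07 CPM in the mutant SV against 6.70 and 1.86 CPM in the WT SV, and scg2b, at 2.20 and 4.09 CPM in the mutant SV against 17.3 and 2.14 CPM in the WT SV. None of the 11 neuroendocrine genes tested was called between the mutant and the WT SV. The 11 neuron markers found of 12 listed summed to 15.7 and 36.0 CPM in the mutant SV, against 62.1 and 27.5 CPM in the WT SV. Of the 10 neuron genes tested, 1 was called lower in the mutant SV, chata, which encodes the enzyme that makes acetylcholine. It stood at 0 and 0.0963 CPM in the mutant SV, against 5.42 and 2.05 CPM in the WT SV (edgeR adjusted p = 0.0402). All 5 enterocyte genes tested were called lower in the mutant SV, and none of the 8 hepatocyte genes was called. These counts stand beside 1.54% of all genes called between the SV of both genotypes. The parathyroid gene gcm2, the 1 marker found of 4 listed, was at 0 CPM in the mutant SV and at 0 and 0.163 CPM in the WT SV. The part of endocrine tissue, of neurons, or of the enterocyte and hepatocyte signal given above, in the level of calca was not tested.

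The genes whose log2 level was most like that of calca over the 12 libraries were pla2g12b (Pearson r 0.977), galn (0.974), apoc2 (0.969), apobb.1 (0.968) and hacd3 (0.963). These correlations rest on the separation of the SV libraries from the rest, and all values of a library share its depth and its dissection. Of these genes, galn encodes the neuropeptide galanin, and apoc2 and apobb.1 encode apolipoproteins of blood lipid transport. The gene apobb.1 is also in the hepatocyte list above. It stood at 41.2 and 3.37 CPM in the mutant SV, against 201 and 154 CPM in the WT SV. The sum of that list was instead highest in the first mutant SV library, at 4654 CPM. galn stood at 1.74 and 0.481 CPM in the mutant SV, against 4.53 and 6.68 CPM in the WT SV, and had 0 counts in the other 8 libraries. Unlike calca, it was higher in the second WT SV library than in the first.

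**Figure D2:**
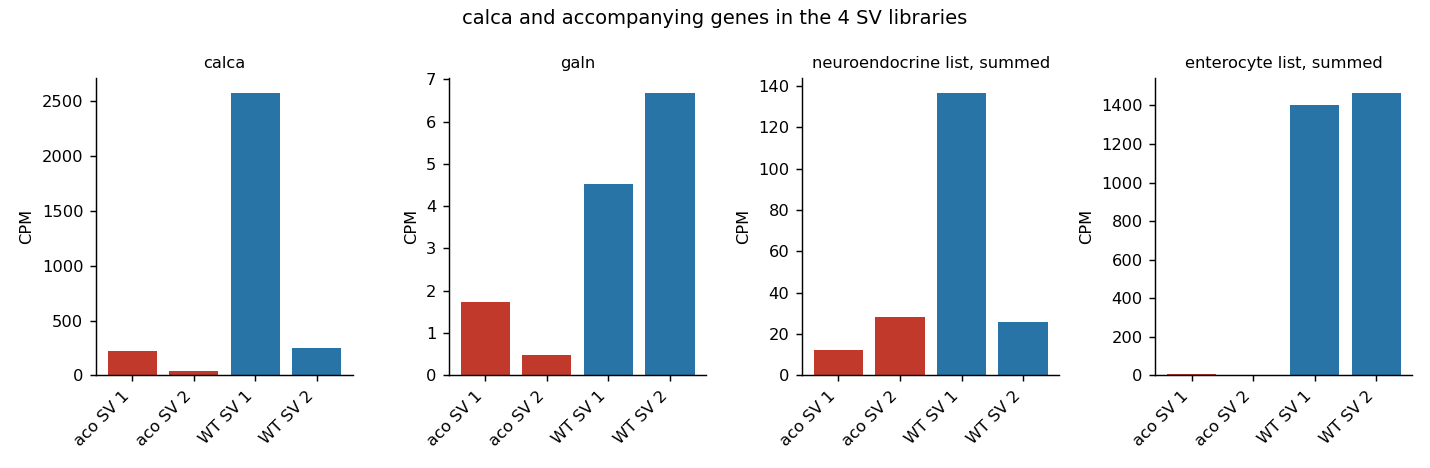
Levels in CPM, on linear axes from 0, of calca, of galn, and of the summed neuroendocrine and enterocyte marker lists in the 4 SV libraries (red, mutant; blue, WT). calca and the neuroendocrine list are both highest in the first WT SV library, whereas the enterocyte list is at 1400 and 1467 CPM in the WT SV and near 5 CPM in the mutant SV.

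The adrenomedullin gene adma was measured in every tissue. It stood at 48.0 and 64.9 CPM in the mutant SV, 50.2 and 44.1 CPM in the WT SV, 6.93 and 24.4 CPM in the WT BA, 37.3 and 85.0 CPM in the WT atrium, 38.8 and 19.6 CPM in the mutant ventricle and 16.5 and 14.4 CPM in the WT ventricle. By group mean the order ran from the WT atrium through the mutant SV, the WT SV and the mutant ventricle to the WT BA and WT ventricle, where the first 3 groups overlapped, as did the last 2, and the mutant ventricle overlapped the atrium and the BA. Both BA libraries were below both atrium libraries, with a log2 fold change of BA over atrium of -2.0 and an SE of 0.571 (edgeR adjusted p = 0.0311). This call was lost without the first BA library (adjusted p = 0.178) and without the second atrium library (adjusted p = 0.277). The SV libraries were above both BA and both ventricle libraries, yet the adjusted p of adma was 0.0726 for SV over BA and 0.0698 for SV over ventricle, and neither was called. The first of these passed without either mutant SV library or the second BA library, and the second without either mutant ventricle or either BA library, with adjusted p between 0.0113 and 0.0489.

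The intermedin gene adm2a was a low gene, highest in the SV. It stood at 5.13 and 1.28 CPM in the mutant SV, 2.38 and 1.86 CPM in the WT SV, 0.190 and 0.0780 CPM in the WT BA, and 0.376 and 0.482 CPM in the WT atrium. In the ventricles its replicates disagreed, with 2.29 and 0.329 CPM in the mutant ventricle against 0.0246 and 1.41 CPM in the WT ventricle, the lowest of these being 1 count. The WT SV exceeded the WT BA by 3.82 on the log2 scale (SE 1.03, edgeR adjusted p = 0.0263), where the BA libraries held 7 and 3 counts. Leaving out any 1 of the 4 SV and BA libraries of WT fish ended this call, with adjusted p between 0.0571 and 0.0973. adm2a did not overlap between the WT SV and the atrium or the ventricle either, but these differences were not called.

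The other ligands of the family were examined from a list of 5 genes of the pathway that were not members. Among them the second adrenomedullin gene, admb, set the SV libraries apart most clearly. It stood at 129 and 154 CPM in the mutant SV, 91.9 and 92.3 CPM in the WT SV, 2.69 and 17.3 CPM in the WT BA, 5.31 and 3.08 CPM in the WT atrium, 10.5 and 8.58 CPM in the mutant ventricle and 4.59 and 9.48 CPM in the WT ventricle. All 4 SV libraries exceeded the other 8. The SV libraries also held the markers of neighbouring organs given above, and the part of those organs in the level of admb was not tested. In edgeR's test the WT SV was higher than the BA by 3.21 (SE 0.697, adjusted p = 0.00961), than the atrium by 4.39 (SE 0.756, adjusted p = 0.00208) and than the ventricle by 3.68 (SE 0.719, adjusted p = 0.00254) on the log2 scale. The mutant SV was higher than the WT BA by 3.77 (adjusted p = 0.0115) and than the mutant ventricle by 3.88 (adjusted p = 0.00289), and admb was not called between the mutant and the WT SV, with a log2 fold change of 0.56 (adjusted p = 0.781). The calls over the BA were lost in a fit of the groups compared alone, with adjusted p of 0.0511 for the WT SV and 0.112 for the mutant SV.

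Other members of the list were low or irregular. The second intermedin gene, adm2b, held 0 counts in both BA libraries, against 0 and 80 counts in the WT ventricle libraries, and its lower level in the BA was called (adjusted p = 0.0273) although the ventricle replicates themselves lay that far apart. The amylin gene iapp, an islet hormone in mammals, stood at 0 and 0.0241 CPM in the mutant SV, against 2.56 and 0.140 CPM in the WT SV. Like calca it was higher in the first WT SV library than in the second, and the WT SV was called higher than the BA, which held 1 and 2 counts (edgeR adjusted p = 0.0402), whereas its genotype difference was not called (adjusted p = 0.0961). The calcitonin receptor gene calcr had at most 4 counts in any library. The receptor component gene crcp stood between 2.56 and 5.10 CPM in all 12 libraries and was called in none of the 10 comparisons, and its smallest adjusted p among them was 0.617. A further receptor gene, calcrl2, was added after its values were seen, with 2, 1, 0 and 1 counts in the 4 SV libraries and with at most 35 counts elsewhere.

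**Figure D3:**
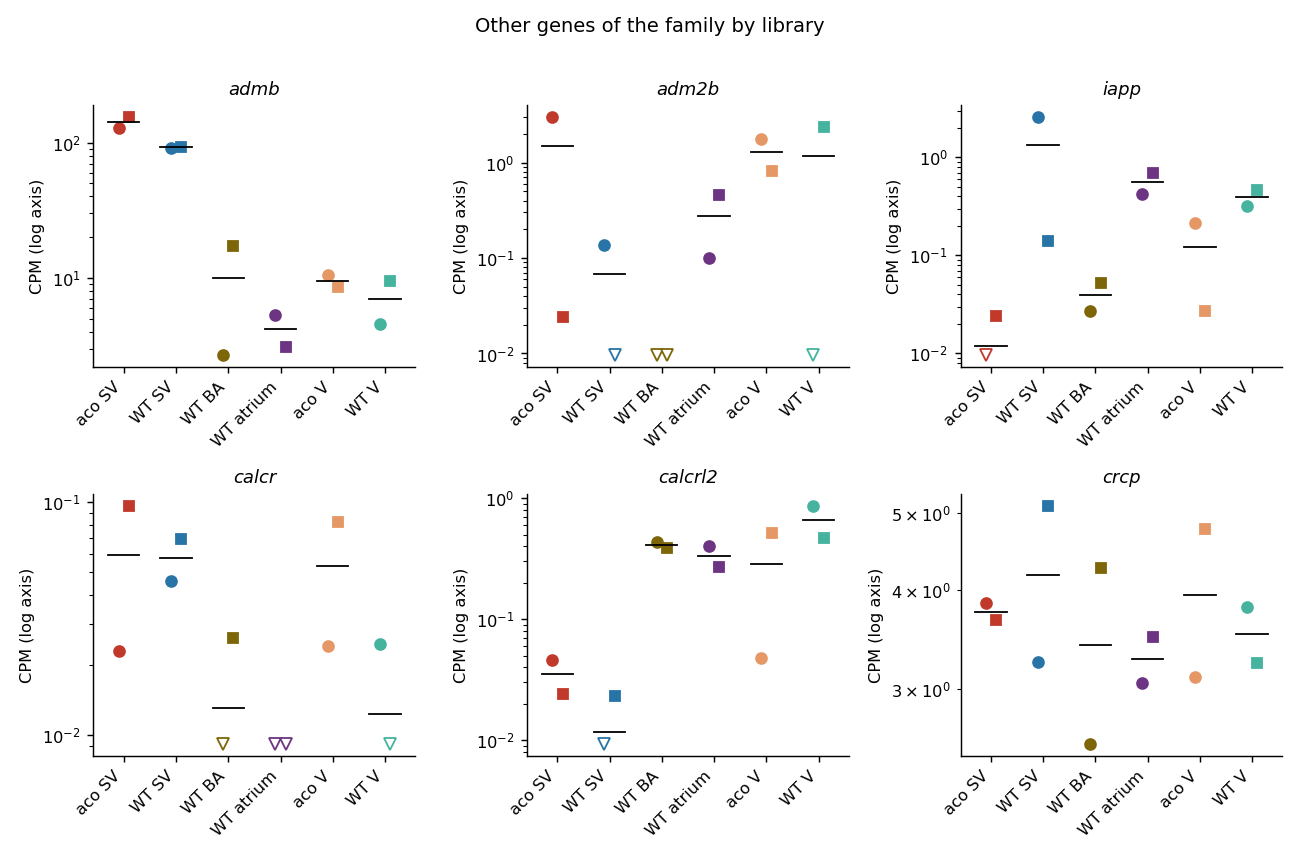
Level of the 5 listed genes of the family that were not members, and of calcrl2, in every library, in CPM on a log axis, with circles for replicate 1, squares for replicate 2, lines at group means and open triangles for 0 counts. The 4 SV libraries of admb lie between 91.9 and 154 CPM and all other libraries at or below 17.3 CPM, and crcp varies little.

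Per length of transcript the ligand genes ranked differently by tissue. The deposited FPKM are counts per kilobase of gene, scaled by DESeq2 size factors. On that scale the WT SV held 1705 and 157 FPKM of calca, 33.3 and 28 of adma, 21.3 and 20.4 of admb and 0.708 and 0.530 of adm2a. In the WT atrium adma stood at 23.3 and 49.7 FPKM, and calca at 0.0932 and 0.265 FPKM. In the WT BA adma was at 4.39 and 14.5 FPKM and admb at 0.594 and 3.58 FPKM. The mutant SV held 148 and 22.4 FPKM of calca, 32.5 and 40.6 of adma and 30.3 and 33.5 of admb, so that in its second library calca lay below both adrenomedullin genes.

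The WT ventricle had the lowest level of calcrla and the highest level of calcrlb among the 6 groups. For calcrla, all other libraries lay above it. It stood at 2.06 and 2.74 CPM in the mutant SV, 1.26 and 1.47 CPM in the WT SV, 1.52 and 0.988 CPM in the WT BA, 2.53 and 1.07 CPM in the WT atrium, 1.83 and 0.685 CPM in the mutant ventricle and 0 and 0.147 CPM in the WT ventricle. The WT ventricle values are 0 and 5 counts, against 25 to 114 counts in the other 10 libraries. These ventricle libraries had the highest totals but also the lowest TMM factors (0.673 and 0.605). In the second of them 1 read was worth 0.0294 CPM, the most of any library. On the log2 scale edgeR placed calcrla higher than in the ventricle by 4.21 in the SV (SE 1.03, adjusted p = 0.00904), by 4.11 in the BA (SE 1.03, adjusted p = 0.0122) and by 4.68 in the atrium (SE 1.04, adjusted p = 0.0302), sizes that rest on those 5 counts. Without the first WT ventricle library they were 3.07, 2.90 and 3.28 and none was called, with adjusted p of 0.0504, 0.0824 and 0.226. The atrium call was also lost without the first atrium library (adjusted p = 0.234).

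The gene calcrlb was highest in the WT ventricle and flat elsewhere. It stood at 1.95 and 3.68 CPM in the mutant SV, 2.74 and 2.12 CPM in the WT SV, 2.94 and 2.26 CPM in the WT BA, 2.80 and 2.49 CPM in the WT atrium, 1.93 and 3.37 CPM in the mutant ventricle and 22.4 and 12.7 CPM in the WT ventricle. The 10 libraries outside the WT ventricle overlapped throughout. Against the ventricle calcrlb was lower by 2.55 in the SV (log2 fold change -2.55, SE 0.366, edgeR adjusted p = 3.878e-04), by a log2 fold change of -2.50 in the BA (SE 0.363, adjusted p = 4.677e-04) and of -2.60 in the atrium (SE 0.361, adjusted p = 0.00442). The SV and BA calls held without any 1 library. The atrium call was lost without the first ventricle library (adjusted p = 0.0553) and without the first atrium library (adjusted p = 0.0931).

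The receptor partner gene ramp2 followed a gradient with the WT ventricle at its top. It stood at 89.0 and 153 CPM in the mutant SV, 142 and 115 CPM in the WT SV, 121 and 62.9 CPM in the WT BA, 268 and 232 CPM in the WT atrium, 118 and 175 CPM in the mutant ventricle and 472 and 360 CPM in the WT ventricle. The WT ventricle and then the WT atrium stood clear of all other libraries, and the remaining 4 groups overlapped. Against the ventricle the log2 fold change was -1.50 in the SV (SE 0.338, edgeR adjusted p = 0.00575) and -2.03 in the BA (SE 0.340, adjusted p = 0.00118), and both calls held without any 1 library. The BA was also lower than the atrium, with a log2 fold change of -1.36 (SE 0.332, adjusted p = 0.0148). This was lost without the first or the second atrium library or the second BA library, with adjusted p between 0.0651 and 0.0957. The atrium was below the ventricle without overlap, but this was not called (adjusted p = 0.257).

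The row zgc:91818, the RefSeq synonym of ramp1, was near the limit of detection. It held 10 and 11 counts in the mutant SV, 3 and 9 counts in the WT SV, 0 counts in both libraries of the WT BA, 24 and 5 counts in the WT atrium, 8 and 7 counts in the mutant ventricle and 0 and 2 counts in the WT ventricle. It was called in 1 comparison, lower in the BA than in the atrium (edgeR adjusted p = 0.0423), and was not called between genotypes in the SV (adjusted p = 0.831) or in the ventricle (adjusted p = 0.435).

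On the FPKM scale ramp2 exceeded both receptor genes in every library. In the WT ventricle it stood at 223 and 155 FPKM, calcrlb at 6.93 and 3.58 FPKM and calcrla at 0 and 0.0818 FPKM. In the mutant ventricle ramp2 stood at 54.9 and 75.0 FPKM, calcrlb at 0.585 and 0.946 FPKM and calcrla at 1.1 and 0.381 FPKM. In the WT atrium the paralogs were near each other, at 1.5 and 0.594 FPKM for calcrla and 0.838 and 0.697 FPKM for calcrlb.

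Among the 6 comparisons of WT tissues, the 5 members tested made 11 calls. Of the 5, 1 was called for SV over BA (adm2a, higher), beside 18.1% of all genes tested. None was called for SV over atrium, beside 20.5% of all genes. There ramp2 had an unadjusted edgeR p of 0.0291, and 6342 of the 19145 genes tested had one below 0.05. DESeq2 called 0 members for SV over atrium, beside 25.2% of all genes it tested. For SV over ventricle 3 of 5 were called, 1 higher and 2 lower, beside 35.7%. For BA over atrium 2 of 5 were called, both lower, beside 18.6%. For BA over ventricle 3 of 5 were called, 1 higher and 2 lower, beside 26.7%. For atrium over ventricle 2 of 5 were called, 1 higher and 1 lower, beside 5.12%. In the same order, the median log2 fold change of the 5 members was 0.53, -0.41, 1.49, -1.36, -2.03 and 0.00, against 0.06, 0.06, 0.21, -0.01, 0.16 and 0.07 over all genes tested. All these comparisons with the ventricle share the same pair of ventricle libraries, so their calls are not separate evidence.

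The ventricles of the mutants differed from those of WT fish in 1 receptor gene, calcrlb. It stood at 1.93 and 3.37 CPM in the mutant ventricle, against 22.4 and 12.7 CPM in the WT ventricle, a log2 fold change of -2.32 (SE 0.374, edgeR adjusted p = 0.0406). It was the 1 member of 6 called, beside 0.272% of all genes. The call is a narrow one. It was lost without either mutant SV library, the second WT SV library, the first mutant ventricle library, either WT ventricle library or either WT atrium library, with adjusted p between 0.0615 and 0.187, while the log2 fold change stayed between -2.82 and -2.17 over all 12 omissions. It was also lost with no RUVs factor (adjusted p = 0.0913) and in a fit of the ventricles alone (adjusted p = 0.267).

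The gene calcrla lay the other way, at 1.83 and 0.685 CPM in the mutant ventricle against 0 and 0.147 CPM in the WT ventricle. Its log2 fold change was 4.05 (SE 1.07) and was not called (edgeR adjusted p = 0.142). ramp2 stood at 118 and 175 CPM in the mutant ventricle, against 472 and 360 CPM in the WT ventricle, and its log2 fold change of -1.21 (SE 0.347) was not called either (adjusted p = 0.165). DESeq2 called both calcrla and ramp2, beside 4.17% of all genes it tested. adma stood at 38.8 and 19.6 CPM in the mutant ventricle, against 16.5 and 14.4 CPM in the WT ventricle, with a log2 fold change of 0.70 (SE 0.627, adjusted p = 0.632).

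**Figure D4:**
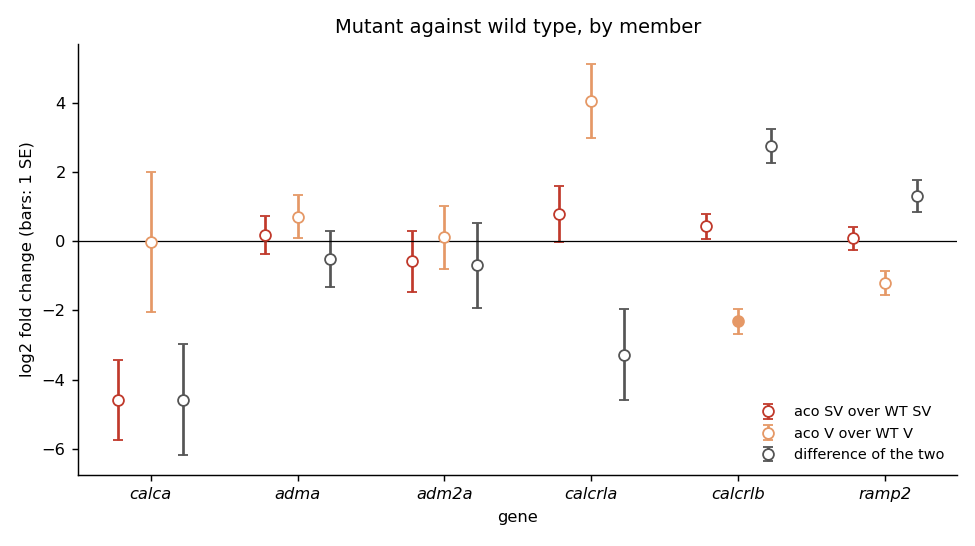
Log2 fold change of each gene in the mutant over the WT SV (red), in the mutant over the WT ventricle (orange) and the difference between these effects (grey), with bars of 1 SE; a filled point passed an adjusted p of 0.05. Only calcrlb in the ventricle is filled, and the values of calcrla and calcrlb in the ventricle lie on opposite sides of 0; the orange and grey points of calca rest on at most 12 counts in each ventricle library.

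In the SV no member was called between genotypes, beside 1.54% of all genes. By edgeR 1 of the 6, calca, had an unadjusted p below 0.05, beside 2674 of the 19145 genes tested. DESeq2 called that same gene, beside 5.49% of all genes it tested. The log2 fold change of the mutant over the WT SV was 0.18 for adma (approximate 95% interval -0.90 to 1.27) and 0.78 for calcrla (-0.81 to 2.36). It was 0.42 for calcrlb (-0.28 to 1.12), 0.08 for ramp2 (-0.58 to 0.74) and -0.59 for adm2a (-2.30 to 1.13). The signs of ramp2 and adm2a ran against their group means, which were 121 CPM in the mutant SV and 128 CPM in the WT SV for ramp2, and 3.20 CPM in the mutant SV and 2.12 CPM in the WT SV for adm2a. With no RUVs factor the log2 fold change was -0.083 for ramp2 and 0.59 for adm2a, so no direction is given for either. The intervals reach to both sides of 0. calcrla stood at 2.06 and 2.74 CPM in the mutant SV against 1.26 and 1.47 CPM in the WT SV, and its edgeR adjusted p was 0.746. The median over the 6 members was 0.13 in the SV and 0.04 in the ventricle, against -0.01 and 0.02 over all genes tested. In the ventricle calca entered this median from 6 and 12 counts in the mutant libraries and 3 and 9 counts in the WT libraries.

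Whether the effect of genotype differed between the SV and the ventricle was tested directly. For calcrlb the effect in the SV exceeded that in the ventricle by 2.74 on the log2 scale (SE 0.494), with an edgeR adjusted p of 0.0597. None of the 6 members was called, beside 0.198% of all genes. An unadjusted p below 0.05 was found for 4 of them, calca included, beside 2336 of the 19145 genes tested. DESeq2 called calcrlb, beside 3.3% of all genes it tested. For calcrla the difference was -3.28 (SE 1.30, adjusted p = 0.345) and for ramp2 1.30 (SE 0.462, adjusted p = 0.294). For calca this difference is not read, because its ventricle libraries held at most 12 counts each. Leaving out either WT BA library, which takes part only in the shared spread and factor, brought calcrlb past the threshold (adjusted p = 0.0425 and 0.0432).

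The mutant SV was also set against the WT BA and the mutant ventricle. None of the 5 members tested was called over the WT BA, beside 7.31% of all genes, and none over the mutant ventricle, beside 21% of all genes. The members' median log2 fold change was 0.88 over the BA and 0.94 over the mutant ventricle, against -0.02 and 0.03 over all genes tested. Over the BA, adma (log2 fold change 1.77, edgeR adjusted p = 0.0857) and adm2a (3.23, adjusted p = 0.0863) had an unadjusted p below 0.05 and were called by DESeq2. Of all 19145 genes tested, 4601 had such a p over the BA, and DESeq2 called 13.7% of those it tested. edgeR called adma without the second BA library (adjusted p = 0.0183) and adm2a without the first WT ventricle library (adjusted p = 0.0497). Over the mutant ventricle 0 of 5 had an unadjusted p below 0.05, beside 6266 of the 19145 genes tested, and DESeq2 called 0, beside 26.2% of all genes. adma stood at 48.0 and 64.9 CPM in the mutant SV, against 38.8 and 19.6 CPM in the mutant ventricle, without overlap.

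Summed markers of blood endothelium and of macrophages also stood apart between the ventricles. Those of lymphatic and venous endothelium (5 genes) overlapped, at 122 and 112.5 CPM in the mutant ventricle against 85.2 and 128.9 CPM in the WT ventricle. The 6 blood endothelium markers summed to 281 and 347 CPM in the mutant ventricle, against 642 and 572 CPM in the WT ventricle, and lay between 148 and 430 CPM in the SV, BA and atrium libraries. In this list flt1, a receptor of VEGF, stood at 70.5 and 110 CPM in the mutant ventricle, against 307 and 220 CPM in the WT ventricle, and kdrl, another such receptor, at 61.2 and 94.7 CPM in the mutant ventricle, against 216 and 180 CPM in the WT ventricle. Of the other 4, pecam1 was lower in both mutant ventricle libraries, at 11.7 and 19.7 CPM against 32.4 and 33.9 CPM in the WT ventricle. fli1a was higher in both, at 79.1 and 66.1 CPM in the mutant ventricle against 35.1 and 61.2 CPM in the WT ventricle, and cdh5 and tie1 overlapped. None of the 6 was called between the ventricles. The 5 macrophage markers summed to 163 and 55.0 CPM in the mutant ventricle, against 8.06 and 21.5 CPM in the WT ventricle, and to between 50.1 and 211 CPM in the SV, BA and atrium libraries of both genotypes. Of these 5, 1 was called higher in the mutant ventricle, beside 0.272% of all genes called between the ventricles. No listed marker of blood endothelium or of macrophages was at 0 in a ventricle library. The part of endothelial cells in the levels of calcrlb and ramp2, and of macrophages in that of calcrla, was not tested.

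**Figure D5:**
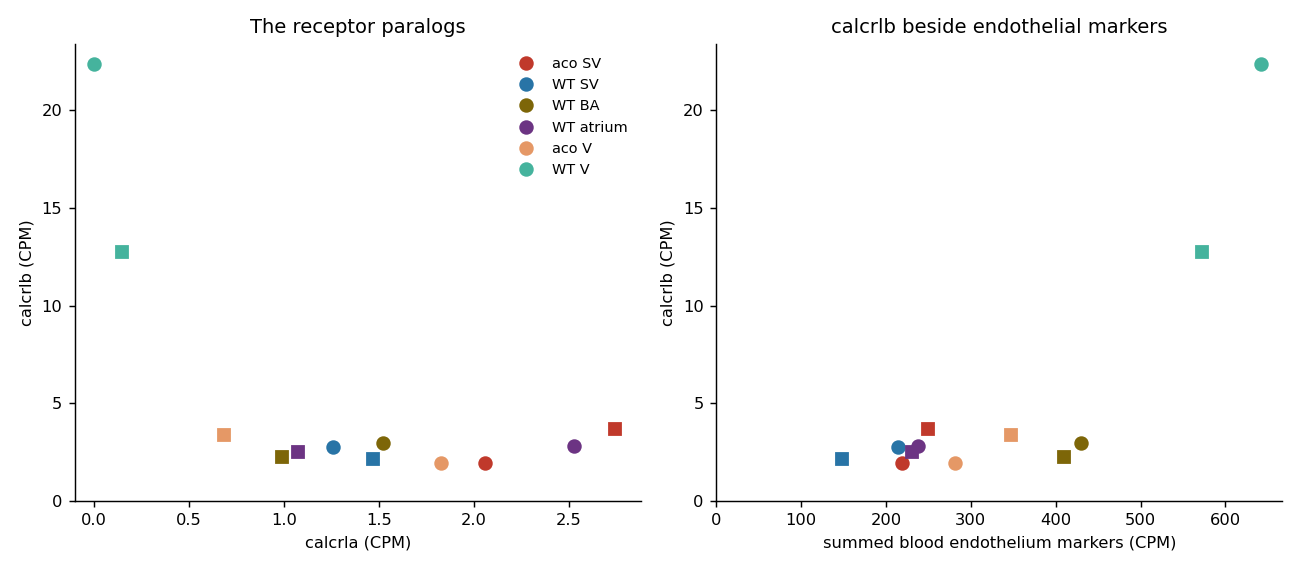
Left, calcrla against calcrlb in each of the 12 libraries; right, the summed level of 6 blood endothelium markers against calcrlb; all axes are linear and in CPM, with circles for replicate 1 and squares for replicate 2. The WT ventricle libraries stand alone at 22.4 and 12.7 CPM of calcrlb, and the other 10 libraries show no trend of calcrlb with calcrla.

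The genes most like each receptor gene and ramp2 were found by Pearson r over the 12 libraries. For calcrla they were mpeg1.1, a macrophage perforin gene of the list above (r 0.967), and fam117ab (0.960). For calcrlb they were apba1b (0.928) and klf2b, a transcription factor gene that responds to blood flow in endothelium (0.921). For ramp2 they were bcar3 (0.925) and bcl2l10 (0.923). klf2b stood at 61.6 and 119 CPM in the mutant ventricle, against 380 and 293 CPM in the WT ventricle, and mpeg1.1 at 15.0 and 12.5 CPM in the mutant ventricle, against 1.35 and 3.32 CPM in the WT ventricle. The WT ventricle libraries set much of this likeness. Over the other 10 libraries r was 0.759 for mpeg1.1 with calcrla, 0.524 for klf2b with calcrlb and 0.841 for bcar3 with ramp2. Over those 10, r was -0.04 between calcrla and calcrlb, and 0.50 between calcrlb and ramp2.

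The ligand genes had other companions. For adma the most alike were ampd3a (r 0.887) and rims2a (0.883), and for adm2a rps6ka1 (0.914) and rgs7bpa (0.902), over 12 libraries that differ in depth and tissue.

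The genes of peptide maturation, receptor signalling and ligand removal were examined by lists. No gene of any of the 6 lists was called between genotypes in the SV, beside 1.54% of all genes. The same held in the ventricle, beside 0.272%, and in the difference between these effects, beside 0.198%. The list medians in the SV lay between -0.33 and 0.20. Between WT tissues, ackr3b, which in mammals and fish encodes a scavenger receptor that removes chemokines and in mammals adrenomedullin, was higher in the SV than in the atrium by 3.70 on the log2 scale (SE 0.684, edgeR adjusted p = 0.00303). It stood at 446 and 85.8 CPM in the WT SV, against 52.2 and 12.4 CPM in the WT atrium. The second WT SV library lay between those of the WT BA (94.4 and 64.1 CPM) and between those of the WT ventricle (126 and 81.6 CPM). In the mutant SV ackr3b stood at 70.2 and 602 CPM.

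Of 11 processing and degradation genes tested, 3 were higher and 2 lower in the SV than in the ventricle, beside 35.7% of all genes called. Among them cpe, a carboxypeptidase that trims peptide hormones, stood at 4.94 and 1.51 CPM in the SV, against 0.295 and 0.206 CPM in the ventricle (log2 fold change 4.30, SE 0.886, edgeR adjusted p = 0.00346). The endothelin-converting enzyme gene ece2b stood at 0.777 and 1.28 CPM in the SV, against 9.43 and 14.2 CPM in the ventricle, a log2 fold change of -3.77 (SE 0.486). ece1 stood at 107 and 45.4 CPM in the BA, against 24.0 and 20.3 CPM in the atrium, and was called (adjusted p = 0.0148).

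Downstream of the receptor, the adenylyl cyclase genes adcy5 and adcy2b were highest in the BA. adcy5 stood at 0.503 and 0.349 CPM in the WT SV, against 15.1 and 16.6 CPM in the WT BA, a log2 fold change of -5.22 (SE 0.469, edgeR adjusted p = 9.5e-05). adcy2b stood at 258 and 469 CPM in the BA, against 11.8 and 14.3 CPM in the ventricle (log2 fold change 4.81, SE 0.581). adcy6b stood at 0.252 and 0.140 CPM in the SV, against 9.09 and 5.25 CPM in the ventricle, and was called lower. Between the SV and the BA, 1 of the 11 genes of this list was called higher in the SV and 3 were called lower, beside 18.1% of all genes.

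Of 8 protein kinase A genes tested, prkar2aa, a regulatory subunit, stood at 452 and 282 CPM in the SV, against 85.4 and 85.7 CPM in the BA (log2 fold change 2.11, SE 0.314, edgeR adjusted p = 0.00127). Of 10 genes for CREB factors, arrestins and receptor kinases, 3 were higher in the SV than in the ventricle and none was lower, beside the same 35.7% of all genes. crema, a transcription factor of the cyclic AMP response, stood at 602 and 434 CPM in the SV, against 100.4 and 69.8 CPM in the ventricle (log2 fold change 2.97, SE 0.610), and grk6, a kinase of activated receptors, at 18.9 and 16.0 CPM in the SV, against 6.98 and 4.43 CPM in the ventricle (log2 fold change 1.97, SE 0.310).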

How the data were processed

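For the deposited table the authors used cutadapt for trimming, STAR with danRer11 for alignment and FeatureCounts for uniquely mapped reads on genes, stranded and with overlapping genes allowed, treating single-end and paired-end libraries as single-end. The batch of each library is not given in the sources used here. The authors deposited whole-number counts for 22158 genes without normalization and FPKM values scaled by DESeq2 size factors. The deposited table also holds group means of FPKM and the authors' log2 fold changes, p-values and adjusted p-values for 8 comparisons, which were not used. No row lacked a gene name.

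Counts were filtered by edgeR's filterByExpr and scaled by TMM, and RUVs gave 1 factor from all genes kept, taking the 6 groups as its sets of replicates. A quasi-likelihood model of group plus factor was fitted to the 12 libraries together (edgeR 4.0.16, R 4.3.3), with Benjamini-Hochberg adjustment over 19145 genes in each of 10 comparisons and in the difference of genotype effects. Genes below an adjusted p of 0.05 are termed called, and tests are two-sided. SE is the log2 fold change over the square root of F, and 95% intervals are 1.96 SE on each side. These intervals are approximate and narrower than the F test implies, because that test allows for the few libraries. Likeness used log2 CPM with a prior count of 2, among genes with a mean of at least 1 CPM. No replicate pair agreed within sampling noise, and reads carry no molecular identifiers.

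Members, gene lists and tests were chosen with earlier results of these data known. Genes named are the 6 members found, up to 4 genes of each list by smallest p, and the genes most like each member. Gene names and synonyms were checked in a RefSeq table of another assembly, so no coordinates are given. Alternatives were no RUVs factor, DESeq2 1.42.0, the replicate number as a block, no filter, DESeq2 size factors, a fit of the groups compared alone, and each library left out. The methods were tested on simulated data. Figures used matplotlib 3.10.9 in Python 3.11.15.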

Additional observations from a re-analysis of the deposited data

How the results depend on the processing

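All 12 called differences of members kept their direction under every alternative and omission, though not always their call. Between WT tissues the 11 calls became 7 with a replicate block in place of the factor and ranged from 7 to 12 as each library was left out. Between genotypes the 1 call became 0 with no RUVs factor, with the replicate block or in a fit of the groups compared alone, and 4 with DESeq2, and it ranged from 0 to 1 as each library was left out. The 0 calls of the mutant SV against the WT BA and the mutant ventricle became 2 with DESeq2 and ranged from 0 to 1 over the omissions. The 0 calls for the difference of genotype effects became 1 with DESeq2 and ranged from 0 to 1 over the omissions. In a fit of the groups compared alone, the BA over atrium calls of adma (adjusted p = 0.0941) and ramp2 (0.0604) and the calls of calcrla over the ventricle in the BA (0.0627) and the atrium (0.0927) were lost, and that of adm2a for SV over BA was lost with no RUVs factor (0.0942). The fit of the groups compared alone also added calls. They were adm2a for SV over atrium (beside 21.5% of all genes), and adma for SV over ventricle (35.4%) and atrium over ventricle (3.46%). Between WT tissues DESeq2 kept all 11 calls. It added adma for SV over BA (beside 23.7% of all genes it tested), SV over ventricle (40.2%) and atrium over ventricle (12.6%). The cause was not tested.

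The labels do not say what a replicate number marks, and over the 10 comparisons same-numbered libraries deviated with r between -0.476 (the ventricles of both genotypes) and 0.18 (WT SV and BA), so they were taken to share only a number. It was also above 0.1 for SV with atrium (0.175) and BA with atrium (0.139), and was -0.153 between the SV of both genotypes. The block ended the calls of adm2a for SV over BA, of adma and ramp2 for BA over atrium, of calcrla for atrium over ventricle and of calcrlb between the ventricles. With the numbers of the mutant libraries crossed in the replicate block, an alternative chosen after seeing the data, the genotype calls were 2 and those of the mutant SV against the other tissues were 1.

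Uncalled fold changes near 0 changed sign, and the cause was not tested. For calca in the ventricle (main value -0.03) they were 0.50 with no RUVs factor, 0.16 with DESeq2, 0.50 with the replicate block, 0.51 with it crossed and 0.078 with no filter, and ranged from -0.79 to 1.05 over the omissions. For adm2a in the SV (-0.59) they were 0.59 with no RUVs factor, 0.46 with the replicate block, 0.087 with it crossed and 0.60 in the SV alone, and ranged from -0.94 to 0.16. For ramp2 in the SV (0.08) they were -0.083 with no RUVs factor, -0.068 with the replicate block, -0.13 with it crossed and -0.10 in the SV alone, and ranged from -0.31 to 0.25. Over the omissions adma ranged from -0.32 to 0.50 and calcrlb from -0.023 to 0.58 in the SV, and adm2a from -0.88 to 4.83 in the ventricle. The difference of genotype effects ranged from -1.04 to 0.28 for adma and from -4.98 to 0.79 for adm2a. Low counts limit the precision for calcrla and adm2a in the first WT ventricle library (0 and 1 count) and for calca outside the SV.

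Over all genes, the counts of calls moved by more than 1.5 times under these settings. For the mutant over the WT SV the 295 calls became 138 with no RUVs factor, 61 with the replicate block, 38 in the SV alone and 1010 with DESeq2. For the mutant over the WT ventricle the 52 calls became 4 with no RUVs factor, 0 with the replicate block, 0 in the ventricles alone, 171 with the numbers crossed, 28 with DESeq2 size factors and 737 with DESeq2. The 38 calls for the difference of genotype effects became 5, 2 and 1 with no factor, the block and the 4 groups alone, 12 with the numbers crossed, 10 with DESeq2 size factors and 595 with DESeq2. For the atrium over the ventricle 980 became 496, 196, 554 and 2326 with no factor, the block, the groups alone and DESeq2. For the mutant SV over the BA 1400 became 493 with the block, 0 in these groups alone and 2581 with DESeq2. The 3457 calls for SV over BA became 1664 and the 3934 for SV over atrium 2423 with the block, and the 4019 for the mutant SV over the mutant ventricle became 2269 in these groups alone. As each library was left out, the counts ranged from 122 to 406 for the mutant over the WT SV, 0 to 178 for the ventricles, 4 to 88 for the difference of effects, 1463 to 3632 for SV over BA, 2033 to 4345 for SV over atrium, 4063 to 7358 for SV over ventricle, 2034 to 3849 for BA over atrium, 2881 to 5258 for BA over ventricle, 85 to 1185 for atrium over ventricle, 663 to 1624 for the mutant SV over the BA and 2855 to 4357 for it over the mutant ventricle.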
